A study of Mus musculus with 8 samples.

Results

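The 10 genes Ppat, Gart, Pfas, Paics, Adsl, Atic, Impdh2, Cad, Dhodh and Umps encode enzymes that build purine and pyrimidine nucleotides from small precursors. They were chosen by name, by matching gene identifiers to symbols, and are 10 of the 55416 genes in the deposited count table. Their messenger RNA was measured by RNA sequencing in MB21, a mouse medulloblastoma cell line with a mutation in ptch grown in suspension without serum. The tested cells, called DS38 here, received 10 uM DS-1-38, a compound the series describes as derived from benzarone, for 5 days. The others, called DMSO, received the vehicle over the same time, and all libraries share the one line and its genotype. Each group had 4 libraries, and no label says that they came from separate cultures. The p-values therefore reflect the spread from library to library, and that spread may be technical.

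Purines are assembled stepwise on a ribose phosphate supplied by PRPP, with glutamine, glycine, aspartate and folate-bound formyl groups as building blocks, to give IMP, which is then turned into AMP or GMP. Pyrimidines are made in the other order: the ring is built first, as orotate, and is joined to PRPP to give UMP, from which CTP follows. Growing tumour cells draw on both routes for RNA and DNA, and several of the enzyme genes are known targets of Myc transcription factors.

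Transcripts of 6 of the 10 enzymes were lower with DS-1-38 and none was called higher. Impdh2, which controls entry into guanine nucleotide synthesis, fell by 20.4%, and Paics, in the middle of purine ring assembly, fell by 15.0%. Ppat, Gart, Dhodh and Umps fell by 7.72% to 13.6%, while Pfas, Atic, Cad and Adsl did not pass the test. The threshold was a Benjamini-Hochberg adjusted p under 0.05 in edgeR's quasi-likelihood test. All 10 passed the filter on low counts, and the 15133 genes kept by it formed the background, of which 39.5% were called, 20.7% lower and 18.8% higher. Scaling libraries by their totals alone raised the share of calls that were higher to 64.3%, against 47.5% with TMM factors. With totals alone, 14.3% of all genes were called lower and 25.9% higher. Among the 10, only Paics and Impdh2 were then called lower and Adsl was called higher. The median log2 fold change was -0.13 over the 10 and -0.01 over all genes tested. These are small changes in bulk RNA, in which fewer cells of a type and less RNA per cell cannot be told apart.

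Library totals ran from 17142397 to 28476019 counts, and single enzymes had between 340 counts, for Dhodh in DS38 library 3, and 10566, for Paics in DMSO library 1. Values below are CPM, a library's counts scaled to a common total and adjusted by TMM factors, unless they are said to be per length, in RPKM. Both libraries numbered 1 stood apart from the rest of their groups on the second principal component (14.7% of the variance). By chi-square per degree of freedom, DS38 libraries 1 and 2 differed from 3 and 4 by 11.9 to 20.5, against 4.78 and 4.25 within these pairs and 4.48 to 8.20 among DMSO libraries. Without the single identifier ENSMUSG00000119584, left out after seeing the data, the values across that split were 3.31 to 7.36, against 4.02 and 3.57 within the pairs and 3.91 to 6.86 in DMSO. The tumour's granule progenitor markers, such as Atoh1 and Gli1, were present at a summed 2024 to 2116 CPM of the plain totals in DS38 and 1898 to 1958 in DMSO. Single markers moved in opposite directions within this sum. Of the 9, 3 were called lower, among them Gli1 (log2 fold change -0.60), and 5 higher, among them Atoh1 (0.60). Over all genes tested, 20.7% were lower and 18.8% higher. Marker sums of oligodendrocytes, microglia and endothelium stayed at or below 3.27 CPM in every library, with Mag, Cx3cr1 and Cldn5 at 0 counts. Astrocyte markers summed to 114 to 116 CPM in DS38 and 117 to 121 in DMSO, and fibroblast markers to 54.1 to 58.4 CPM in DS38 and 72.3 to 77.3 in DMSO. Most of these sums belonged to Slc1a3 and Pdgfra. Slc1a3 was called lower (log2 fold change -0.13, adjusted p = 0.00831 in edgeR). Gfap, at 3.07 CPM in DS38 and 1.83 CPM in DMSO, was called higher (0.75, adjusted p = 0.00421 in edgeR), and S100b (0.04) did not pass. Pdgfra, at 51.1 CPM in DS38 and 73.3 CPM in DMSO, was called lower (-0.52, adjusted p = 2.44e-08 in edgeR). The other tested fibroblast markers had positive log2 fold changes. Col1a1, at 0.798 CPM in DS38 and 0.233 CPM in DMSO, was called higher (1.81, adjusted p = 0.0016 in edgeR). Lum (0.70) and Col3a1 (0.41) did not pass the threshold. Of the endothelial markers, Tek, at 0.747 CPM in DS38 and 0.318 CPM in DMSO, was called higher (1.34, adjusted p = 0.0295 in edgeR), and Cdh5 (0.09) did not pass. The part of these cell type markers in the results was not tested.

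Promoter sequences are shown for the genes on which the results turn: Paics and Ppat, which start head to head, both IMP dehydrogenase genes, which moved in opposite directions, and Atic, which holds the same motif as Paics and Impdh2 but did not pass the test. Each window runs from 250 bases before to 50 bases after the start site, 5′ to 3′ on the gene's strand, in RefSeq's GRCm38.p6 build. Capitals mark CACGTG, the E-box that Myc proteins and related factors bind, which reads the same on both strands.
Paics, chr5:76951052-76951351, plus strand: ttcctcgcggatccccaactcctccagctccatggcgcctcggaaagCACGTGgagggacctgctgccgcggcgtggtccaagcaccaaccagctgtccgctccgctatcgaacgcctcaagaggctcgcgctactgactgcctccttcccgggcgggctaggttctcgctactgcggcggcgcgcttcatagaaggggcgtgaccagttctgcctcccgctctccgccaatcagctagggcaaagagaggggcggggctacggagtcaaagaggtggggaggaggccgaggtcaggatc
Ppat, chr5:76951529-76951828, minus strand: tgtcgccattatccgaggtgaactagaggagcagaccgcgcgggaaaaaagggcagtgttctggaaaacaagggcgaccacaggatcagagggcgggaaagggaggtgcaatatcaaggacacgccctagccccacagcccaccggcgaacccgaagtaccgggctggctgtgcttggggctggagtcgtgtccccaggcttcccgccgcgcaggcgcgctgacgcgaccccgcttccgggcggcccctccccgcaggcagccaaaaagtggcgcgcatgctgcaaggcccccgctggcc
Impdh2, chr9:108560186-108560485, plus strand: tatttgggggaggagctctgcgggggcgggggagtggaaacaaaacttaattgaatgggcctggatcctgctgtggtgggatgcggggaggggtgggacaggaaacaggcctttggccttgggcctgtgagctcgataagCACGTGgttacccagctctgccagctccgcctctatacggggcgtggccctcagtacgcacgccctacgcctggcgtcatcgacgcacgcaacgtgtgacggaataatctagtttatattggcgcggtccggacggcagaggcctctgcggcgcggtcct
Impdh1, downstream start, chr6:29212248-29212547, minus strand: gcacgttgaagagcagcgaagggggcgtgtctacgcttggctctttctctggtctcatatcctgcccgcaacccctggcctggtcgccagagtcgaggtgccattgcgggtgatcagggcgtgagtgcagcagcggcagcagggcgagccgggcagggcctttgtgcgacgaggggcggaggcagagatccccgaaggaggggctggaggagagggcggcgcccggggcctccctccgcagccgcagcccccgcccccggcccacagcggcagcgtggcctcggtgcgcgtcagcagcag
Impdh1, upstream start, chr6:29216315-29216614, minus strand: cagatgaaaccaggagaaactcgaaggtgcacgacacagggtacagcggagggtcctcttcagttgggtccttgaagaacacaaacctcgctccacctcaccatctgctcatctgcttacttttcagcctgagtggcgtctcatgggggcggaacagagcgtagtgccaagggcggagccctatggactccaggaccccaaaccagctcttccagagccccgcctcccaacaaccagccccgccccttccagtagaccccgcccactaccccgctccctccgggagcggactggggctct
Atic, chr1:71556906-71557205, plus strand: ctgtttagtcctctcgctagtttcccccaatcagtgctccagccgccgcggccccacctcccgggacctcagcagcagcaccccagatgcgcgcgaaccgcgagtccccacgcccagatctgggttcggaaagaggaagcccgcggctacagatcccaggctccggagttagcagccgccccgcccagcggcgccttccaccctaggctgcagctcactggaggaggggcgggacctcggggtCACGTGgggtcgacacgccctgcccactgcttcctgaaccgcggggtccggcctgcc

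Windows were found for 8 of the 10 enzymes. The E-box was in 3 of these 8, beginning at position -203 in Paics, -110 in Impdh2 and -7 in Atic, and in 7.15% of all 32851 mouse windows of this length. The element TGATGNAA, searched on both strands as the core of the site bound by C/EBP and ATF proteins, was in 0 of the 8 and in 3.97% of all windows. These matches describe letters in a window and say nothing of a bound factor. Both Impdh1 windows held neither motif.

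Paics and Ppat lie on opposite strands, and in the GENCODE annotation of the earlier build their exons overlap by 272 bases, which is 8.67% of the exon bases of Paics and 6.15% of those of Ppat. The strand setting of the counting is not given in the sources used here, so reads from that stretch cannot be assigned with certainty. Gart shares 1014 exon bases (19.7%) with the antisense gene Gm15964, which had 75 counts over all 8 libraries. Umps shares 213 bases (6.11%) with the antisense gene Gm15829, which had 11 counts. Impdh2 shares 48 bases (1.56%) with Ndufaf3.

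**Figure D1:**
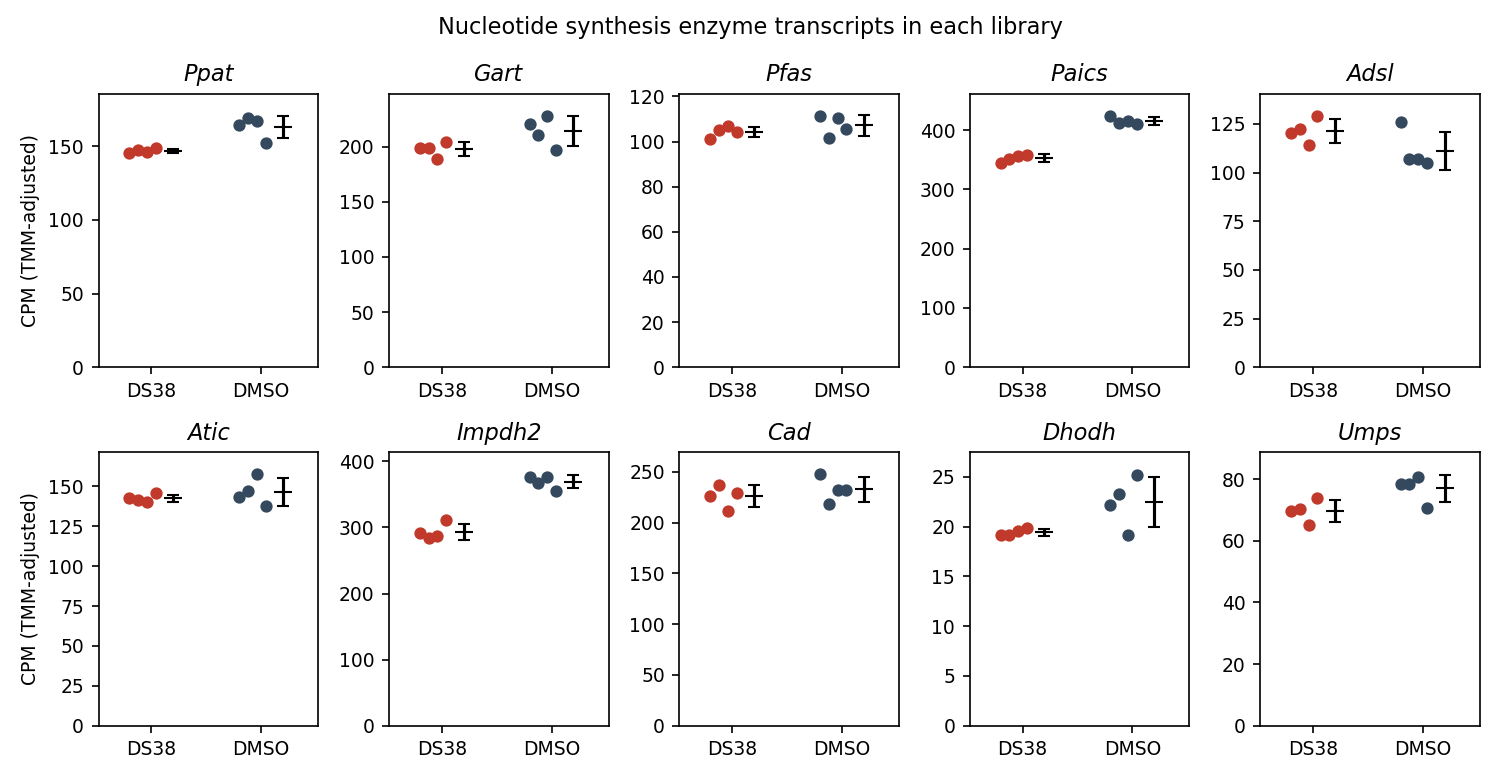
CPM of the 10 enzyme transcripts in each library, DS38 to the left of DMSO, each panel on its own axis from 0. Points are libraries, and the bar beside them is the mean with its SD (n = 4 each). Groups are apart in Ppat, Paics and Impdh2 and overlap in the other panels.

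Among the enzymes of ring assembly, Ppat encodes the amidotransferase that commits PRPP to purine synthesis. It had 145, 147, 146 and 148 CPM in DS38 libraries 1 to 4, against 164, 169, 167 and 152 CPM in DMSO libraries 1 to 4. Every DS38 library lay below every DMSO library, although DMSO library 4 came close. The log2 fold change was -0.15 ± 0.040 (SE), with an adjusted p = 0.00519 in edgeR. With library totals alone the call was lost (log2 fold change -0.09, adjusted p = 0.0698 in edgeR).

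Paics encodes an enzyme with a pair of activities, AIR carboxylase and SAICAR synthetase, which add carbon dioxide and aspartate to the growing ring. It had 345, 352, 357 and 358 CPM in the DS38 libraries, against 424, 412, 416 and 410 CPM in the DMSO libraries. The groups were far apart relative to their spread, with means of 353 ± 6.09 CPM in DS38 and 416 ± 5.95 CPM in DMSO (SD, n = 4 each). The log2 fold change was -0.23 ± 0.036 (SE, adjusted p = 5.47e-05 in edgeR), and it ran from -0.25 to -0.17 over the 19 alternatives, with a call in each. Across the 10 enzymes, the groups did not overlap in 3 cases, all lower in DS38, against 18.8% of genes tested that were lower without overlap and 17.3% that were higher.

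Gart encodes a protein with 3 of the assembly activities, one of which uses formyl folate. It had 198, 199, 189 and 204 CPM in DS38 and 221, 211, 228 and 197 CPM in DMSO. The ranges overlapped, because DMSO library 4 lay below 3 of the DS38 libraries. The log2 fold change of -0.12 ± 0.045 (SE) passed narrowly (adjusted p = 0.0495 in edgeR), and the call was lost in 14 of 19 alternatives, 7 of them other methods and 7 with libraries left out. Over the 19, the log2 fold change ran from -0.16 to -0.06, the smallest with library totals alone.

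Pfas, the enzyme that brings in nitrogen from glutamine after the first Gart steps, had 101 to 107 CPM in DS38 and 102 to 111 CPM in DMSO. Its log2 fold change of -0.04 had a 95% interval from -0.13 to 0.05 (adjusted p = 0.467 in edgeR). Atic, which carries out the last steps to IMP with a second formyl group, had 140 to 146 CPM in DS38 and 137 to 158 CPM in DMSO, with a log2 fold change of -0.04 and an interval from -0.13 to 0.05 (adjusted p = 0.492 in edgeR). For both genes the intervals reach, at their lower end, a change nearly as large as that of Ppat. Both values turned slightly positive, to 0.02, with library totals alone. With the gene length correction both were -0.10, still without a call (adjusted p = 0.0654 for Pfas and 0.0714 for Atic in edgeR).

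Adsl was the only enzyme of the 10 with a positive log2 fold change. It encodes adenylosuccinate lyase, which releases fumarate both during ring assembly and on the way from IMP to AMP. It had 121, 123, 114 and 129 CPM in DS38, against 126, 107, 107 and 105 CPM in DMSO. DMSO library 1 lay within the DS38 range, and the other DMSO libraries lay below it. The log2 fold change of 0.13 ± 0.056 (SE) did not pass (adjusted p = 0.0848 in edgeR). Without DMSO replicate 1 it was 0.19 and passed (adjusted p = 0.00354 in edgeR). It also passed without DS38 replicate 3 (adjusted p = 0.0363 in edgeR). Without DMSO replicate 2, 3 and 4 in turn it was 0.11, 0.11 and 0.10 and did not pass (adjusted p from 0.206 to 0.219 in edgeR). With the gene length correction it was 0.08 (adjusted p = 0.223 in edgeR).

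The next steps lead from IMP to GMP, and there the 2 IMP dehydrogenase genes moved in opposite directions. IMP dehydrogenase oxidises IMP to XMP with NAD and sets the rate of guanine nucleotide synthesis, and Impdh2 is the form known to be raised in dividing cells. Impdh2 had 292, 284, 287 and 311 CPM in DS38, against 377, 368, 376 and 356 CPM in DMSO. All DS38 libraries were below all DMSO libraries, with a log2 fold change of -0.33 ± 0.040 (SE, adjusted p = 4.43e-06 in edgeR) that was called in all 19 alternatives. This was the largest change among the 10 enzymes.

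Impdh1, the other isozyme and not one of the 10, had 86.1, 80.3, 77.8 and 80.1 CPM in DS38, against 67.7, 63.1, 64.7 and 64.7 CPM in DMSO. All DS38 libraries were above all DMSO libraries, and the rise of 0.32 ± 0.044 (log2, SE) had an adjusted p = 1.60e-05 in edgeR. Per length, in RPKM, Impdh2 stood at 95.5 ± 3.94 in DS38 and 120 ± 3.12 in DMSO, and Impdh1 at 24.6 ± 1.07 in DS38 and 19.8 ± 0.584 in DMSO (SD, n = 4 each). Impdh2 thus remained the more abundant transcript in both groups.

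Of the per-length counts of both isozymes, Impdh2 made up 78.4, 79.1, 79.8 and 80.6% in DS38 libraries 1 to 4, against 85.6, 86.2, 86.1 and 85.5% in DMSO libraries 1 to 4. The mean share was 79.5 ± 0.943% in DS38 and 85.9 ± 0.358% in DMSO (SD, n = 4 each), a difference of -6.36 percentage points. A two-sided exact permutation test over the 70 arrangements gave p = 0.0286, the smallest value that 4 against 4 libraries allow. The share does not depend on how libraries were scaled. The sequence copy Impdh2-ps, which may take reads from Impdh2, averaged 7.95 ± 0.969 CPM in DS38 and 10.2 ± 0.466 CPM in DMSO and fell in the same direction (log2 fold change -0.37, adjusted p = 0.00543 in edgeR).

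**Figure D2:**
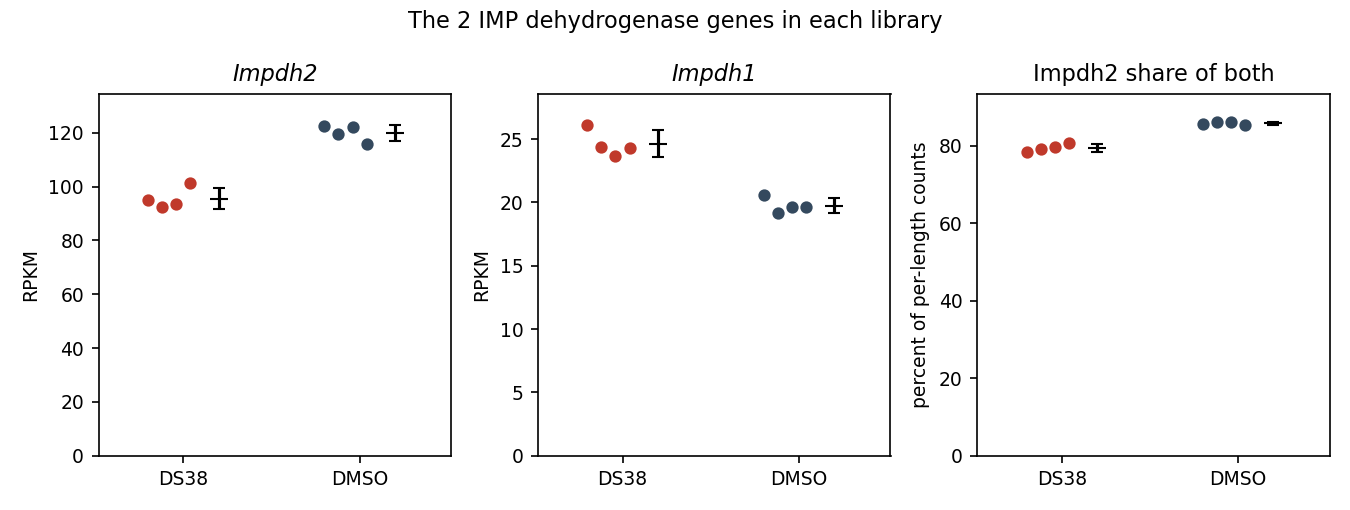
RPKM of Impdh2 and Impdh1 and the Impdh2 share of the per-length counts of both, in each library, DS38 to the left of DMSO, on axes from 0. Points are libraries and bars are means with SD (n = 4 each). Impdh2 is lower and Impdh1 higher in every DS38 library, and the Impdh2 share is 79.5% in DS38 against 85.9% in DMSO.

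Gmps, which turns XMP into GMP, fell with Impdh2, with 232 to 243 CPM in DS38 and 252 to 289 CPM in DMSO (log2 fold change -0.17, adjusted p = 0.00379 in edgeR). On the AMP side, Adss, which starts the path from IMP to AMP, had 177 to 187 CPM in DS38 and 169 to 177 CPM in DMSO, with a log2 fold change of 0.07 that did not pass (adjusted p = 0.167 in edgeR). Its muscle-type counterpart Adssl1 had 13 counts over all libraries and was not tested. Apart from Impdh2, the step from IMP to AMP and GMP thus had 1 fall and 1 rise among 3 tested genes. Over all genes tested, 20.7% were lower and 18.8% higher.

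In pyrimidine synthesis the first enzyme and the later ones differed in their calls. Cad encodes the large protein that carries out the first 3 reactions, from glutamine to dihydroorotate. It had 226, 237, 212 and 229 CPM in DS38, against 248, 219, 232 and 232 CPM in DMSO. The groups overlapped widely, and the log2 fold change of -0.04 had a 95% interval from -0.14 to 0.05 (adjusted p = 0.498 in edgeR). That value turned to 0.02 with library totals alone and to -0.10 with the gene length correction (adjusted p = 0.0640 in edgeR). The difference between the change of Cad and those of the other pyrimidine enzymes was not tested.

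Dhodh encodes the mitochondrial enzyme that oxidises dihydroorotate to orotate and passes electrons to ubiquinone. It had 19.1, 19.2, 19.6 and 19.8 CPM in DS38, against 22.1, 23.3, 19.2 and 25.2 CPM in DMSO. DMSO library 3 lay within the narrow DS38 range and the other DMSO libraries lay above it. The log2 fold change was -0.21 ± 0.073 (SE), the least precise of the 10, with an adjusted p = 0.0287 in edgeR. It did not pass without DMSO replicate 4 (log2 fold change -0.16, adjusted p = 0.103 in edgeR), and was lost in 8 of 19 alternatives.

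Umps, whose protein joins orotate to PRPP and then removes carbon dioxide to give UMP, had 69.6, 70.2, 65.2 and 73.8 CPM in DS38, against 78.5, 78.4, 80.6 and 70.7 CPM in DMSO. DMSO library 4 lay within the DS38 range and the other DMSO libraries lay above it. The log2 fold change was -0.14 ± 0.049 (SE, adjusted p = 0.0262 in edgeR), and it too was lost in 8 of 19 alternatives, among them the one without DS38 replicate 3 (log2 fold change -0.11, adjusted p = 0.106 in edgeR).

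How many enzymes were called lower depended on single libraries. The count was 6 with all libraries and 3 without DS38 replicate 2, without DS38 replicate 3, without DMSO replicate 2 or, in a setting chosen after seeing the data, without both libraries numbered 1. Of all genes tested, 20.7% were lower with all libraries and 17.3%, 18.0%, 17.8% and 18.2% in those settings. Paics, Ppat and Impdh2 were the 3 called lower in each of these settings. Averaged over the 10 enzymes, log2 CPM centred on each gene's own mean was -0.07, -0.05, -0.09 and -0.02 in DS38 libraries 1 to 4, against 0.10, 0.05, 0.07 and 0.02 in DMSO libraries 1 to 4. The groups did not overlap in this average, and library 4 of each group lay closest to the other group.

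**Figure D3:**
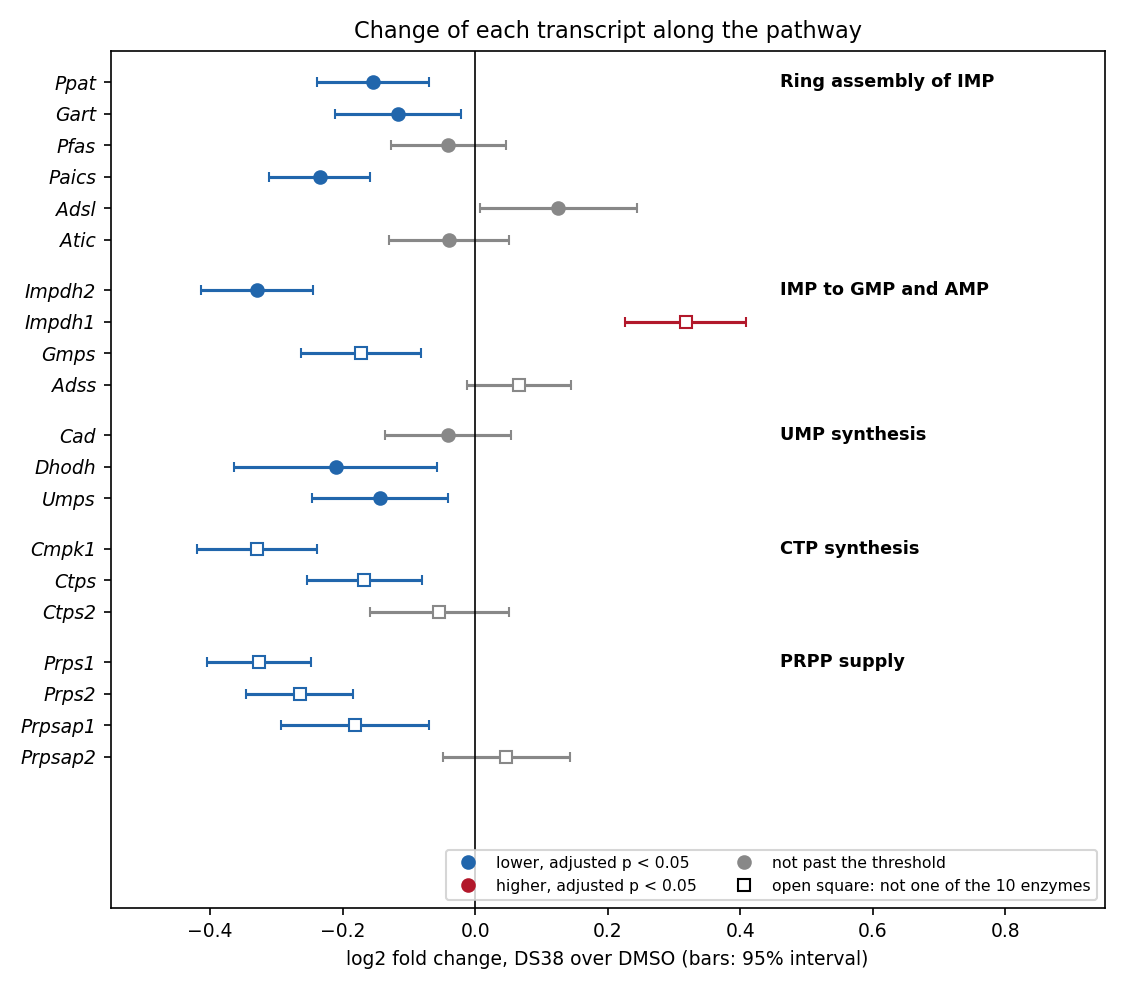
log2 fold change of DS38 over DMSO with its 95% interval for the 10 enzymes (filled circles) and for the genes around them (open squares). Groups of genes run from ring assembly down to CTP synthesis, with PRPP supply, which feeds both routes, at the bottom. Impdh2 at -0.33 and Impdh1 at 0.32 lie on opposite sides of 0, and Adsl at 0.13 is the only circle to the right of it.

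The enzymes differed widely in level per length, and their order hardly changed with the compound. Paics was highest, at 113 ± 1.94 RPKM in DS38 and 132 ± 1.90 RPKM in DMSO, followed by Impdh2. Gart had 38.4 ± 1.24 RPKM in DS38 and 41.6 ± 2.60 in DMSO, Ppat 33.2 ± 0.324 in DS38 and 36.9 ± 1.70 in DMSO, and Cad 27.6 ± 1.32 in DS38 and 28.4 ± 1.45 in DMSO. Adsl stood at 21.6 ± 1.09 RPKM in DS38 and 19.7 ± 1.74 in DMSO, and Umps at 20.01 ± 1.02 in DS38 and 22.1 ± 1.25 in DMSO (SD, n = 4 each). These neighbours were the only ones to change places, with Adsl above Umps in DS38 and below it in DMSO, and their values overlapped in both groups.

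Atic followed at 17.8 ± 0.301 RPKM in DS38 and 18.3 ± 1.07 in DMSO, and overlapped with Adsl in DMSO. Pfas had 13.1 ± 0.288 RPKM in DS38 and 13.5 ± 0.576 in DMSO. Dhodh was lowest, at 3.07 ± 0.0520 RPKM in DS38 and 3.55 ± 0.396 in DMSO. All other neighbours in the order were apart in every library of a group. Within ring assembly, the per-length level of Paics was thus above those of the other enzymes of that route, none of which exceeded 44.3 RPKM in any library.

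PRPP, the substrate that Ppat and Umps share, is made by the synthetases Prps1 and Prps2, and 3 of the 4 tested genes of its supply were lower. The background for this list and those that follow is the share of all genes tested, 20.7% lower and 18.8% higher. Prps1 had 140 to 147 CPM in DS38 and 175 to 186 CPM in DMSO (log2 fold change -0.33 ± 0.038 SE, adjusted p = 2.30e-06 in edgeR). Prps2 had 81.6 to 84.1 CPM in DS38 and 96.1 to 101 CPM in DMSO (log2 fold change -0.26, adjusted p = 2.84e-05 in edgeR). Both lay apart from DMSO in every library and were called in all 19 alternatives. Prpsap1, which encodes a protein associated with the synthetases, fell by 0.18 on the log2 scale (adjusted p = 0.0112 in edgeR), a call lost with library totals and without DS38 replicate 3 (adjusted p up to 0.0834 in edgeR). Prpsap2, its relative, had a log2 fold change of 0.05 (adjusted p = 0.436 in edgeR).

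Downstream of Umps, 2 of the 3 tested genes on the way to CTP fell. Cmpk1, the kinase of UMP and CMP, had 83.0 to 91.7 CPM in DS38 and 105 to 112 CPM in DMSO (log2 fold change -0.33, adjusted p = 1.01e-05 in edgeR). Ctps, the main CTP synthase gene, had a log2 fold change of -0.17 (adjusted p = 0.00349 in edgeR), and its less abundant relative Ctps2 one of -0.05 (adjusted p = 0.419 in edgeR). Per length, Ctps stood at 59.7 ± 2.16 RPKM in DS38 and 67.0 ± 2.73 in DMSO, and Ctps2 at 10.7 ± 0.569 in DS38 and 11.1 ± 0.519 in DMSO (SD, n = 4 each).

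The ribose of PRPP comes from the pentose phosphate pathway, whose genes moved both ways, with 3 falls and 2 rises among 7 tested (median log2 fold change -0.07). In its oxidative part Pgd (log2 fold change 0.35, adjusted p = 2.50e-06 in edgeR) and G6pdx (0.15, adjusted p = 0.0200 in edgeR) rose, while the lactonase gene Pgls fell (-0.28, adjusted p = 0.00682 in edgeR). Rpia, which makes ribose phosphate itself, fell too (-0.22, adjusted p = 0.00129 in edgeR). The call of G6pdx was lost without DMSO replicate 2 (adjusted p = 0.0893 in edgeR).

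Serine and folate genes around the supply of glycine and formyl groups for ring assembly had 9 falls and 0 rises among 11 tested. The median log2 fold change of this list was -0.62. Mthfd2, a mitochondrial folate enzyme, had 131 ± 4.33 CPM in DS38 and 345 ± 24.7 CPM in DMSO (SD, n = 4 each; log2 fold change -1.39, adjusted p = 1.74e-13 in edgeR). The mitochondrial serine-to-glycine enzyme Shmt2 (log2 fold change -0.90) and the serine synthesis enzymes Phgdh (-0.98) and Psph (-1.59) fell as well, with edgeR adjusted p-values up to 1.01e-10. Aldh1l2, Shmt1 and Mthfd1 are named here after their values were seen. Aldh1l2 had the largest fall of the 9 (-2.13), and Shmt1 (-0.18) and Mthfd1 (-0.14) had the smallest (edgeR adjusted p-values up to 0.0117). The difference between these changes and those of the 10 enzymes was not tested as such.

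Of 15 genes that make, salvage or break down DNA precursors, 10 fell and 0 rose (median log2 fold change -0.25). Rrm2, a subunit of ribonucleotide reductase, fell by 0.79 on the log2 scale, the thymidine kinase gene Tk1 by 0.57, and Dut, which removes dUTP, by 0.55 (edgeR adjusted p-values up to 3.16e-07). Among 12 proliferation markers 7 fell, 1 rose and 4 did not pass, and their sum was 5451 to 5798 CPM of the plain totals in DS38 and 5859 to 5972 in DMSO. The part that proliferation played in the lower enzyme transcripts was not tested.

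**Figure D4:**
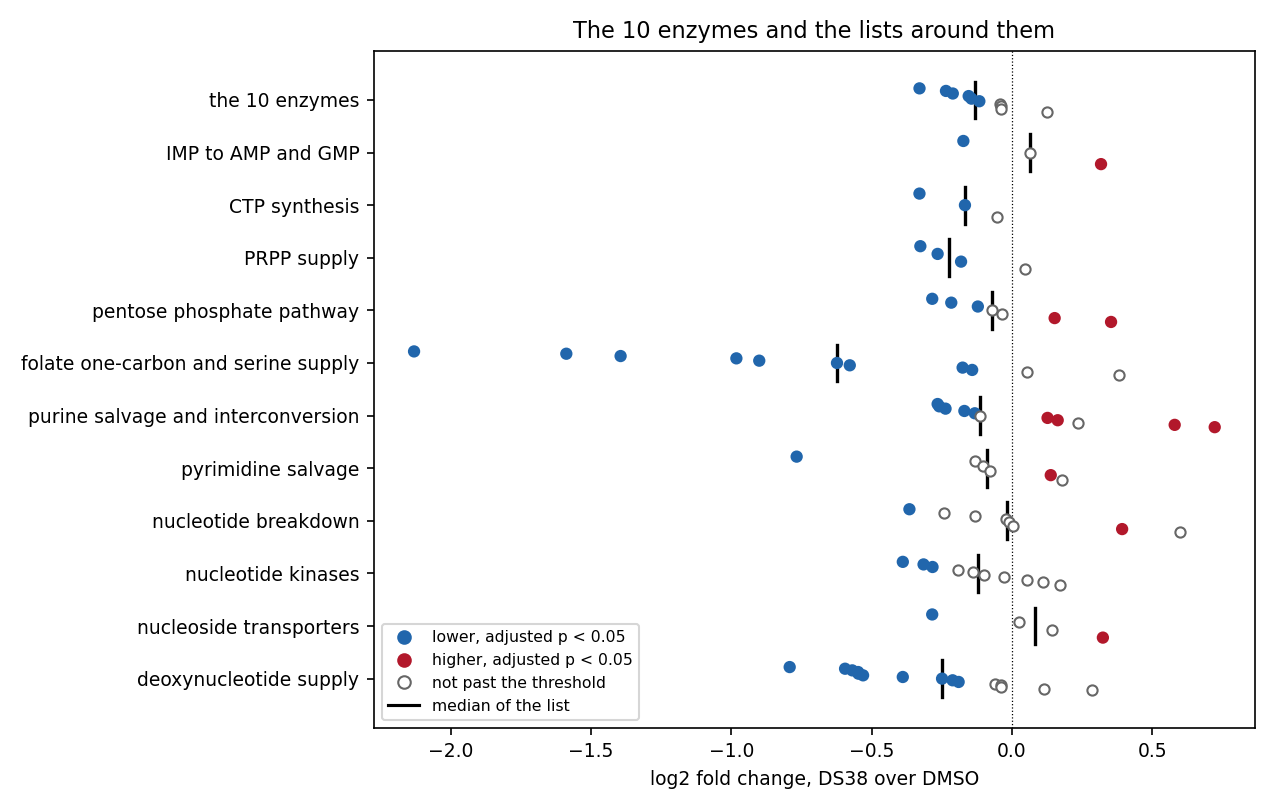
log2 fold change of DS38 over DMSO for each tested gene of the 10 enzymes and of the lists around them, with the median of each list as a vertical line. The median is -0.13 for the 10 enzymes, -0.62 for folate and serine supply and -0.25 for deoxynucleotide supply.

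Among 7 genes for regulators linked to nucleotide synthesis, 1 fell and 3 rose. Atf4, a transcription factor of amino acid shortage that is known to induce Mthfd2, had 183 ± 3.97 CPM in DS38 and 325 ± 18.0 CPM in DMSO (SD, n = 4 each; log2 fold change -0.83, adjusted p = 4.53e-11 in edgeR). Mycl (log2 fold change 0.41, adjusted p = 8.55e-07 in edgeR), the Myc partner gene Max (0.12, adjusted p = 0.0153 in edgeR) and Mtor (0.16, adjusted p = 0.0231 in edgeR) rose. The call of Max was lost in 3 of 19 alternatives, among them the one without DS38 replicate 2, and that of Mtor in 6 of 19, among them those without DS38 replicate 1, DS38 replicate 2 or DMSO replicate 2 (adjusted p up to 0.195 in edgeR). The groups overlapped for Mtor. Myc and Mycn, named here after their values were seen, had log2 fold changes of 0.06 and -0.08 that did not pass (adjusted p = 0.359 and 0.186 in edgeR). Their proteins bind the E-box found in the Paics, Impdh2 and Atic windows, but transcript levels do not measure that binding.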

How the data were processed

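The table deposited by the authors holds whole-number read counts per gene and the gene length in bases for 8 libraries, 4 per group. Per the submitters' processing notes, the tools were edgeR, R 4.1.0, Subread 2.0.3 with featureCounts, and STAR 2.7.9a, and the builds GRCm39 and GRCh38.p13. What the human build was for, whether counting used strand, how multiply matching reads were handled and which annotation was used is not given in the sources used here. Of 55416 identifiers, 52083 found a symbol in GENCODE's annotation of the earlier build GRCm38, and where symbols repeated, the most counted identifier kept the name.

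DS38 was compared with DMSO over all 8 libraries by the robust quasi-likelihood test of edgeR 4.0.16 (R 4.3.3), with TMM factors and filterByExpr at its default minimum of 10 counts. Benjamini-Hochberg adjustment ran over 15133 genes, with a threshold of 0.05. The SE of a log2 fold change was its size over the root of F. RPKM used the deposited lengths. The common biological coefficient of variation was 5.53%. The fit was also run on simulated data in which few genes changed, each by more than any of the 10 enzymes did. That run cannot test changes as small as theirs, or scaling where many genes change.

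The 10 enzymes and the lists were chosen with earlier results of these data known, so the lists are described by counts, without a list test. Named genes were the 10 enzymes, up to 4 genes with the smallest p in each list around them (all tested genes in lists of up to 5), and the 5 genes nearest in profile. Not every gene this rule names is reported here. The 160 list entries were all matched, 3 through an older symbol. Alternatives were DESeq2 1.42.0 size factors and Wald test, library totals, limma-voom (limma 3.58.1), no filter, 50 counts in 4 libraries, a fit that was not robust, the replicate number as a block, a gene length correction, both of these together, leaving out each library, and, chosen after seeing the data, leaving out both libraries numbered 1. Promoter windows came from RefSeq, and figures were drawn with matplotlib 3.10.9.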

Additional observations from a re-analysis of the deposited data

Results flagged for a closer look

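Of 124 sets of 4 libraries examined, for each named gene and for the Impdh2 share, 4 had a library far from the other libraries of its group by Dixon's ratio of gap to range, at its 95% critical value. Chance flags about 5% of such sets. Adsl in DMSO had a ratio of 0.901, with 126 CPM in DMSO library 1 and 105 to 107 CPM in the others. Prpsap1 in DMSO had a ratio of 0.881, with 56.6 CPM in DMSO library 4 and 61.1 to 61.7 CPM in the others. Upp1 in DMSO had a ratio of 0.96, with 7.25 CPM in DMSO library 4 and 9.43 to 9.52 CPM in the others. Nt5c in DS38 had a ratio of 0.973, with 23.4 CPM in DS38 library 3 and 26.2 CPM in each of the others.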

How the results depend on the processing

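Impdh2, Paics and Impdh1 kept their calls and directions in all 19 alternatives, and Ppat in all but library totals. With library totals, 3 enzymes were called, 2 lower and 1 higher, against 14.3% of all genes lower and 25.9% higher. The log2 fold changes of Pfas, Atic, Cad and Ctps2 turned to 0.0204, 0.0210, 0.0196 and 0.0067 in that setting. Adsl was the 1 enzyme called higher there, with the stricter filter, and without both libraries numbered 1, where 3 enzymes were lower and Ctps2 turned to 0.0012. Of all genes, 22.6% were higher with the stricter filter, and 18.2% lower and 16.4% higher without both libraries numbered 1. Leaving out single libraries gave 3 to 6 enzymes called, 3 to 6 lower and 0 to 1 higher. Of all genes, 4939 to 5912 were then called (32.7% to 38.3%), with 17.3% to 19.9% lower and 15.4% to 18.4% higher. Of the lists, 43 to 54 genes were called, 35 to 43 lower and 8 to 14 higher. The 8 was without DMSO replicate 2. Slc29a4 turned to -0.0026 without DS38 replicate 1, and reached 0.077 without DS38 replicate 4. The Impdh2 share difference stayed between -6.74 and -6.00 points. Same-numbered libraries correlated by 0.331, -0.0699, 0.067 and -0.0816 in their deviations, 1 of 4 best with its own number, so the numbers were not taken as pairs. With the replicate block 4 enzymes were called, 4 lower, and 5594 genes, which is 37.0% of those tested, with 20.1% lower. With the block and the length correction 6 enzymes were lower, against 23.3% of all genes. In that setting 8 list genes were higher, against 13 in the main fit. Sign flips over pairs gave an exact p = 0.125 for the Impdh2 share, the smallest that 4 pairs allow. The causes were not tested.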

Other observations

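Salvage and interconversion genes, which recover or convert purines rather than make them, moved both ways, with 5 falls and 4 rises among 11 tested (median log2 fold change -0.11). For this and the other lists below, the shares over all genes tested were 20.7% lower and 18.8% higher. Hprt, the salvage enzyme for hypoxanthine and guanine, had 132 ± 4.69 CPM in DS38 and 156 ± 6.24 CPM in DMSO (SD, n = 4 each; log2 fold change -0.24, edgeR adjusted p = 2.00e-04). Of the GMP reductase genes, Gmpr rose, at a low level (log2 fold change 0.58, edgeR adjusted p = 0.00954), and Gmpr2 fell (-0.26, edgeR adjusted p = 0.0180). The groups overlapped for Gmpr2, whose call was lost in 5 of 19 alternatives, those with library totals and without DS38 replicate 2, DMSO replicate 1, DMSO replicate 2 or both libraries numbered 1 (edgeR adjusted p up to 0.111). The AMP deaminase gene Ampd3 rose as well, at 2.12 CPM in DS38 and 1.26 CPM in DMSO (log2 fold change 0.72, edgeR adjusted p = 0.0162). Of 6 pyrimidine salvage genes 1 fell, the uridine phosphorylase gene Upp1 (log2 fold change -0.77, edgeR adjusted p = 2.57e-05), and 1 rose, the uridine-cytidine kinase gene Uck2 (0.14, edgeR adjusted p = 0.0111). Uck1 (-0.10) and Uckl1 (-0.13) did not pass.

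The nucleoside transporter Slc29a1, known as ENT1, had 366 ± 7.58 CPM in DS38 and 445 ± 10.8 CPM in DMSO (SD, n = 4 each; log2 fold change -0.28, edgeR adjusted p = 1.05e-05). The lysosomal family member Slc29a3 rose (log2 fold change 0.32, edgeR adjusted p = 0.00658), whereas Slc29a2 (0.14) and Slc29a4 (0.03) did not pass. Among 10 nucleotide kinase genes 3 fell and 0 rose: Ak4 (log2 fold change -0.31), Nme6 (-0.39) and Nme4 (-0.28), with edgeR adjusted p-values up to 0.0153, while Ak6 (0.17) did not pass. Of 8 breakdown genes tested the nucleotidase genes Nt5c fell (-0.37, edgeR adjusted p = 3.35e-04) and Nt5e rose (0.39, edgeR adjusted p = 0.0460), and Nt5m (-0.24) and Dpyd (0.60) did not pass. The rise of Nt5e, whose groups overlapped, was lost in 13 of 19 alternatives, among them those without any one of replicates 1, 2 and 3 of either group (adjusted p up to 0.197). The call of Ampd3 was lost without DMSO replicate 2, that of Nme4 without DMSO replicate 1, those of Nme4 and Slc29a3 without both libraries numbered 1, and that of Uck2 with the length correction.

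Over the 8 libraries, the genes whose centred log2 CPM lay closest to the mean profile of the 10 enzymes, out of 10921 with a mean of at least 4 CPM, were Emc3, Dpf2, Mlec, Tcp1 and Dlst. Their root mean square distances were 0.014 to 0.0176 on the log2 scale, and their log2 fold changes -0.12 to -0.09. Among the 10 enzymes the distance ran from 0.0397 for Ppat to 0.138 for Adsl.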
